A study of Mus musculus with 12 samples.

Results

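The clonotypes described here are TCRα chains of newly developed thymic regulatory T lymphocytes (Treg) whose CDR3α carries hydrophobic residues at its centre. A clonotype was a combination of V gene, CDR3 amino acid sequence and J segment. It was a member when its CDR3 was in frame, began with cysteine, was 12 to 15 amino acids long and had at least 2 of the residues F, I, L, M, V, W and Y at positions 5, 6 and 7, counted from the cysteine as position 1. The rule held for 903 of 22578 clonotypes (4.00%) and for 7503 of 199248 UMIs (3.77%), a UMI being the molecular tag that marks 1 cDNA molecule. Among the 17386 in-frame clonotypes of 12 to 15 residues the members were 5.19%, and the other 16483 serve below as the comparison. The rule used sequence alone and no measured abundance.

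TCRα-chains are assembled in developing thymocytes by joining a TRAV to a TRAJ segment, with loss and addition of bases at the junction, which lies in the CDR3. In the complex of TCR and MHC-peptide, the middle of the CDR3 loops usually lies closest to the peptide. Hydrophobic residues at the centre of CDR3 have been linked to self-reactivity of TCR, best known for the β-chain, and Treg are selected on self-peptides. IL-2 and IL-15 both signal through a receptor with shared β and γ chains and both promote Treg development.

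The Treg were sorted as CD4+CD8-Thy1.1+GFP+ thymocytes from individual mice aged 3 weeks, and 4 wt, 4 Il2null (Il2°) and 4 Il15null (Il15°) mice gave 1 library each. All mice were B6 and carried the Rag2-Gfp and Foxp3-Thy1a reporters, the Kaa Tcrb transgene and a Tcra+/null genotype. Every cell therefore could use the same transgenic TCRβ, and only 1 Tcra allele was functional. The Foxp3 reporter marks Treg and the GFP marks recent development, but the files held TCRα sequences alone, so that the cell label could not be checked against marker genes.

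The 8 leading members by mean share of UMIs are shown by the most abundant nucleotide sequence of each CDR3, because they recur in what follows. Codons 5, 6 and 7 are in capitals.
Clonotype 1, TRAV16N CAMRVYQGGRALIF TRAJ15: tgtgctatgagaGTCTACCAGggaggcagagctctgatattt
Clonotype 2, TRAV6D-6 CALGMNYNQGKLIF TRAJ23: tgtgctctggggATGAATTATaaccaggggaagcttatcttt
Clonotype 3, TRAV7N-5 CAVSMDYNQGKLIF TRAJ23: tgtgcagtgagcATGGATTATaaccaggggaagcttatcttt
Clonotype 4, TRAV1 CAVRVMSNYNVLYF TRAJ21: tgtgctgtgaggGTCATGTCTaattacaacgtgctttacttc
Clonotype 5, TRAV7-2 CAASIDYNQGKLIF TRAJ23: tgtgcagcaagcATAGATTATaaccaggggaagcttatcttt
Clonotype 6, TRAV7-2 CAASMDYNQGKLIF TRAJ23: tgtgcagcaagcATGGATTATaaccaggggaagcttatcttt
Clonotype 7, TRAV6-3 with TRAJ23, 15 residues, VMN at the centre: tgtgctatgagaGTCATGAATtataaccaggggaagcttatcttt
Clonotype 8, TRAV6D-6 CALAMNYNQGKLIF TRAJ23: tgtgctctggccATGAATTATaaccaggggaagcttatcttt

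The 4 TRAJ segments that took at least 5% of member UMIs are shown next, up to the last codon of the CDR3 and as germline sequence of GENCODE on GRCm38 (mm10), where all lie on the plus strand.
TRAJ23, chr14:54196081-54196140: tgaattataaccaggggaagcttatcttt
TRAJ9, chr14:54209393-54209450: agcaacatgggctacaaacttaccttc
TRAJ15, chr14:54204422-54204481: cctaccagggaggcagagctctgatattt
TRAJ21, chr14:54198790-54198846: tgtctaattacaacgtgctttacttc
In a CDR3 of 14 residues that kept the whole of TRAJ23, the first J bases TG ended codon 5, and the J segment then encoded N at position 6 and Y at position 7. Clonotypes 2 and 8 matched the germline J from base 14 of the CDR3 onwards, so that 8 of their 9 central bases lay in the J match. In clonotypes 3, 5 and 6, with D at position 6, the exact J match began at base 17 and covered 5 of the 9 central bases. It covered 7 of the 9 in clonotype 1 and 5 of the 9 in clonotype 4. The match is to letters of the germline and does not show by which route a base entered the junction.

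Sequencing gave 7625 to 25980 UMIs per library, with 15977 to 25980 in wt, 7625 to 18652 in Il2° and 10751 to 18589 in Il15° mice. Intervals and detection limits below cover counting error only. A clonotype not found in a library may have held a share of up to 0.0115% in the deepest and 0.0393% in the shallowest library, which 3 UMIs would give. Some libraries shared more exact sequences than others. Of the 8186 nucleotide sequences found in exactly 2 libraries, 6703 (81.9%) fell in 10 of the 66 possible pairs of libraries, with 125 to 1322 sequences a pair against 0 to 98 in the other 56. Of the sequences in these linked pairs, 86.5% had a single UMI in at least 1 of the 2 libraries. Of the linked pairs 7 joined mice of the same genotype and 3 joined a wt to an Il2° mouse. Among members, 266 of the 299 sequences found in exactly 2 libraries (89.0%) fell in linked pairs. The cause was not tested. Results on sharing are therefore given also after dropping each sequence of 1 or 2 UMIs that a linked library held with at least 2 times as many, which removed 5.72% of all and 5.50% of member UMIs. Libraries that share sequences are not fully independent, so that p-values across libraries rest on fewer independent samples than their number.

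The share of UMIs taken by members had the highest mean in Il2° mice, but the 3 genotypes overlapped. In the wt libraries they took 3.28%, 3.78%, 3.32% and 3.62% of UMIs (3.50% ± 0.239, SD, n = 4). In the Il2° libraries they took 3.58%, 4.24%, 4.50% and 5.06% (4.35% ± 0.616), and in the Il15° libraries 4.30%, 3.27%, 2.92% and 3.79% (3.57% ± 0.602). In 3 of 4 Il2° mice the share exceeded that of every wt mouse, while the first Il2° library lay within the wt range. The difference of 0.843 percentage points between Il2° and wt mice was not significant (exact Mann-Whitney test, two-sided, p = 0.114, 0.3 after Benjamini-Hochberg adjustment over 3 pairs of genotypes, higher in 3 of 4 Il2° mice). Nor were those of 0.0673 between Il15° and wt (exact p = 1) and of -0.775 between Il15° and Il2° mice (exact p = 0.2, adjusted 0.3). With 4 mice against 4 the smallest possible p was 0.0286. When the length limits were widened to 11 to 16 residues, Il2° and wt mice no longer overlapped (difference 1.01 points, unadjusted exact p = 0.0286). When tyrosine was left out of the hydrophobic residues, Il15° and Il2° mice no longer overlapped (-0.559 points, unadjusted exact p = 0.0286).

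**Figure D1:**
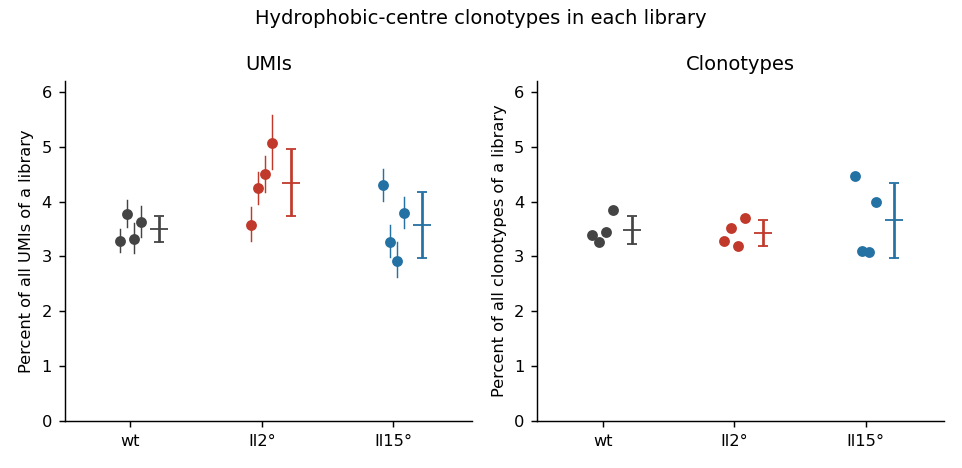
Share of hydrophobic-centre clonotypes in each library by genotype, as percent of UMIs (left, thin lines are 95% Wilson intervals) and percent of clonotypes (right); points are mice and crosses with bars the mean ± SD of 4. The Il2° mice reached 5.06% of UMIs, above the wt maximum of 3.78%, but all 3 genotypes overlapped, and by clonotypes the means lay between 3.42% and 3.66%.

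When each clonotype was counted once, 65 to 195 members were found per library. They were 3.48% ± 0.252 of the clonotypes in wt, 3.42% ± 0.235 in Il2° and 3.66% ± 0.687 in Il15° mice (SD, n = 4 each). No difference was called in the 3 pairs of genotypes (exact Mann-Whitney p = 0.886 for Il2° against wt and 1 for both others). The 2 lowest Il15° libraries, at 3.09% each, were also the 2 shallowest of that genotype, and when all libraries were thinned to the same number of UMIs Il15° and wt mice differed by 0.184 points (exact p = 1). At single positions of the CDR3s of 12 to 15 residues, a hydrophobic residue was most frequent at position 5 and least at position 7. In wt mice the UMI shares were 17.7% ± 0.845, 10.9% ± 0.421 and 7.32% ± 0.459 at positions 5, 6 and 7 (SD, n = 4), and no difference between genotypes was called at any position (lowest unadjusted exact Mann-Whitney p = 0.114). All 3 central positions were hydrophobic in 36 clonotypes with 193 UMIs, or 0.0511% to 0.203% of the UMIs of this length range in a library.

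The members were built around few J segments. Position 5 together with 6 was hydrophobic in 473 members with 45.9% of member UMIs, position 5 together with 7 in 286 members with 46.2%, and 6 together with 7 in 108 members with 5.40%. The leading residues were methionine (34.3% of member UMIs) and valine (28.9%) at position 5, tyrosine (23.0%) and methionine (14.8%) at position 6, and tyrosine (44.4%) at position 7. MNY was the most abundant of 335 central triplets (15.6% of member UMIs), followed by MDY (10.2%), VYQ (9.62%), VMS (6.17%) and IDY (4.51%). The hydrophobic residues at position 7 lay entirely within the exact J match in 95.1% of UMIs, against 38.2% at position 6 and 0% at position 5. At position 5, 59.4% had no base in the J match.

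TRAJ23 took 48.3% ± 7.88 of member UMIs against 4.52% ± 0.529 of those of the other clonotypes (SD, n = 12 libraries). TRAJ9 took 11.9% ± 2.12 against 7.23% ± 0.956, TRAJ15 11.6% ± 4.62 against 5.20% ± 0.561, and TRAJ21 10.6% ± 3.47 against 4.30% ± 0.660. Each of the 4 was higher among members in 12 of 12 libraries, and they summed to 82.4% of member and 21.2% of other UMIs. Since J segments supply letters the rule asks for, these values are a description and were not tested. Even so, most clonotypes with these segments were no members. On average 33.5% of the TRAJ23 UMIs in this length range belonged to members, and 7.31%, 9.56% and 10.8% of those of TRAJ9, TRAJ15 and TRAJ21. The length of the CDR3 sets which J residues fall at its centre. Of TRAJ23 UMIs, members were 1.39% at 12 residues, 6.36% at 13, 61.7% at 14 and 46.3% at 15. Of TRAJ9 UMIs they were highest at 13 residues, with 26.5%, where the M of the germline codon atg falls at position 7. Over all segments together, 67.2% ± 5.56 of member UMIs against 33.5% ± 1.51 of others were in CDR3s of 14 residues.

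Among the 181 TRAJ23 members of 14 residues, codon 5 ended in TG, as the germline J does, in 122 clonotypes with 78.3% of UMIs. The base before TG set the residue. Any base there gives methionine, leucine or valine, all residues of the rule, so that these shares are a description. ATG, for methionine, took 69.3% of the UMIs in 77 clonotypes of 11 TRAV families, CTG and TTG, for leucine, took 3.87% and 1.82%, and GTG, for valine, took 3.33%. The MNY centre alone occurred in 65 clonotypes that used 37 V genes of 11 families and 41 different CDR3s. Of these 34 were found in 1 library and 4 in all 3 genotypes. Over all members, 27 of 790 CDR3 amino acid sequences occurred with more than 1 TRAV family.

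**Figure D2:**
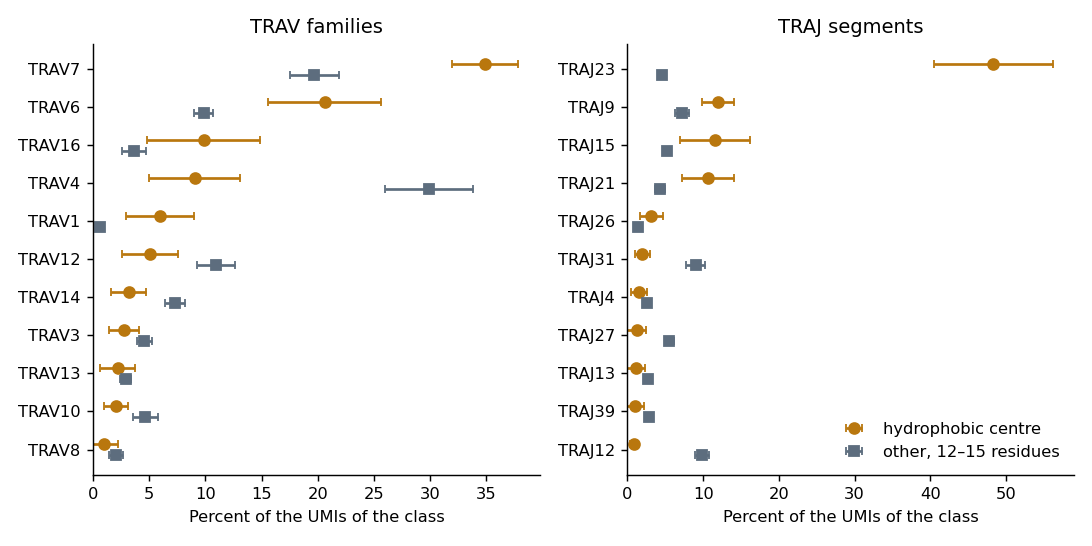
UMI shares of TRAV families (left, all 11 tested) and the 11 TRAJ segments most used by members (right), for hydrophobic-centre clonotypes (circles) and other in-frame clonotypes of 12 to 15 residues (squares); points are means and bars SD over 12 libraries. TRAV7 and TRAV6 lay to the right among members and TRAV4 to the left, and TRAJ23 stood at 48.3% against 4.52%.

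The V usage of members also differed from that of the other clonotypes. TRAV7 was the leading family, with 34.9% ± 2.98 of member against 19.7% ± 2.17 of other UMIs (SD, n = 12), and was higher in 12 of 12 libraries (exact sign-flip permutation test, two-sided, adjusted p = 0.000895). TRAV6 took 20.6% ± 5.01 against 9.85% ± 0.873 and TRAV1 5.96% ± 3.06 against 0.614% ± 0.263, both in 12 of 12 libraries with the same adjusted p by the permutation test. TRAV4, the family most used by the other clonotypes, was lower among members, with 9.06% ± 4.04 against 29.9% ± 3.92, in 12 of 12 libraries (permutation test, adjusted p = 0.000895). TRAV12 was lower as well, with 5.11% ± 2.49 against 10.9% ± 1.68. In all, 4 of the 11 families tested were higher and 6 lower at an adjusted p under 0.05, and TRAV13 was not called. The smallest p that 12 sign flips allow is 0.000488 before adjustment. V segments can supply bases of codon 5, where the rule reads a residue, so that V usage was not wholly independent of the rule. This holds for TRAV7 as for the other families. The calls therefore describe the members and are no independent evidence about them.

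Some of these differences were not seen when each clonotype was counted once. TRAV16 took 9.84% ± 5.05 of member against 3.65% ± 1.08 of other UMIs and was higher in 11 of 12 libraries (permutation test, adjusted p = 0.00134). In that count its difference was -0.160 percentage points (permutation test, adjusted p = 0.891), and only 20 members used it. TRAV10 was 2.64 points lower by UMIs and 0.855 higher in the same count (permutation test, adjusted p = 0.127). TRAV3 also lost its call, with adjusted p = 0.902 by permutation. TRAV7, with 306 members, TRAV6 with 103 and TRAV4 with 143 kept their direction, by 14.4, 3.52 and -10.3 points, with an adjusted p of at most 0.00234 by permutation. TRAV1, with 11 members, kept its call at 1.31 points (permutation test, adjusted p = 0.00234). Its excess by UMIs rested largely on clonotype 4. Without that clonotype TRAV1 took 0.731%, 1.24% and 0.453% of member UMIs in wt, Il2° and Il15° mice, beside 0.614% of other UMIs over all libraries. For TRAV8 the adjusted permutation p of 0.04995 lay at the threshold. TRAV3, TRAV8, TRAV10 and TRAV13 took under 5% of member UMIs and were chosen for mention after their values were seen. TRAV genes with D or N in their name are near copies of others, so the gene within a family is uncertain.

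Within the members, segment usage was compared between genotypes. TRAJ15 took 16.1% ± 3.23 of member UMIs in Il2°, 11.7% ± 3.43 in wt and 6.97% ± 0.936 in Il15° mice (SD, n = 4). The Il15° range of 6.05% to 8.27% lay below the wt range of 8.92% to 16.2% and the Il2° range of 11.9% to 19.7%. TRAJ21 took 13.2% ± 2.05 in Il2° and 7.79% ± 1.82 in Il15° mice, without overlap. TRAJ23 took 55.6% ± 3.45 in Il15°, 46.2% ± 6.21 in wt and 43.2% ± 8.08 in Il2° mice, and the ranges overlapped. None of the 12 tests of 4 TRAJ segments passed adjustment, and 3 had an unadjusted exact Mann-Whitney p of 0.0286, with 0.114 after adjustment. Since 0.0286 is the smallest p that 4 against 4 mice allow, so few separated tests could not pass, and no conclusion is drawn from this.

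For V families, TRAV16 took 14.9% ± 3.38 of member UMIs in Il2° and 5.67% ± 1.36 in Il15° mice, TRAV1 9.07% ± 1.96 and 3.39% ± 2.01, and TRAV6 17.7% ± 1.80 and 25.7% ± 5.75. In these 3 of 18 tests the 4 Il2° and 4 Il15° mice did not overlap (unadjusted exact Mann-Whitney p = 0.0286), and none passed adjustment (lowest adjusted p = 0.171). Here too, so few separated tests could not pass at this number of mice. Without its leading member TRAJ15 fell to means of 3.45%, 4.06% and 2.48% of member UMIs in Il2°, wt and Il15° mice, all overlapping. TRAV16 then had means of 2.14%, 1.17% and 1.12%. Without clonotype 4, TRAJ21 took 5.68% (3.63% to 7.57%) in Il2° and 4.98% (3.24% to 5.68%) in Il15° mice, and TRAV1 1.24% (0.694% to 1.61%) and 0.453% (0% to 1.16%), both with overlap. TRAV6 without its leading member still had 10.8% ± 1.65 in Il2° and 18.4% ± 5.68 in Il15° mice, with ranges of 9.43% to 12.8% and 12.8% to 25.6% that touched.

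The 8 most abundant members of each library, which were not the same 8 in all libraries, held 35.0% to 55.7% of its member UMIs. Clonotype 1, TRAV16N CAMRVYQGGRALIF TRAJ15, took 0.346%, 0.456%, 0.119% and 0.196% of all UMIs in the wt libraries, 0.354%, 0.627%, 0.780% and 0.511% in the Il2° libraries and 0.211%, 0.174%, 0.130% and 0.140% in the Il15° libraries. The Il2° values all exceeded the Il15° values, and the wt values overlapped both. Clonotype 4, TRAV1 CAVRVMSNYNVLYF TRAJ21, took 0.173%, 0.293%, 0.138% and 0.0635% in wt, 0.196%, 0.375%, 0.455% and 0.367% in Il2° and 0.0610%, 0.131%, 0.0372% and 0.194% in Il15° mice. It too was higher in each Il2° than in each Il15° mouse. The highest values of both clonotypes in Il2° mice came from libraries 2 and 3, which are a linked pair.

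Clonotype 2, TRAV6D-6 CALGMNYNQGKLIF TRAJ23, did not separate the genotypes. It took 0.254% to 0.294% in wt, 0.263% to 0.498% in Il2° and 0.262% to 0.433% in Il15° mice, and all groups overlapped, with the highest value in Il2° library 4. Clonotype 3, TRAV7N-5 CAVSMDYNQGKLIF TRAJ23, had means of 0.233% ± 0.0612 in wt, 0.337% ± 0.158 in Il2° and 0.178% ± 0.0784 in Il15° mice (SD, n = 4), again with overlap. Clonotype 5, TRAV7-2 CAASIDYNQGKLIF TRAJ23, ranged from 0.0558% to 0.328% over the 12 libraries. Clonotype 6, TRAV7-2 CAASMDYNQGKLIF TRAJ23, took 0.146% to 0.205% in wt mice, but only 2 UMIs (0.0151%) in the first Il2° and none in Il15° library 3. Clonotypes 7 and 8 took 0.0218% to 0.214% and 0.00536% to 0.105%, with overlap of all genotypes.

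**Figure D3:**
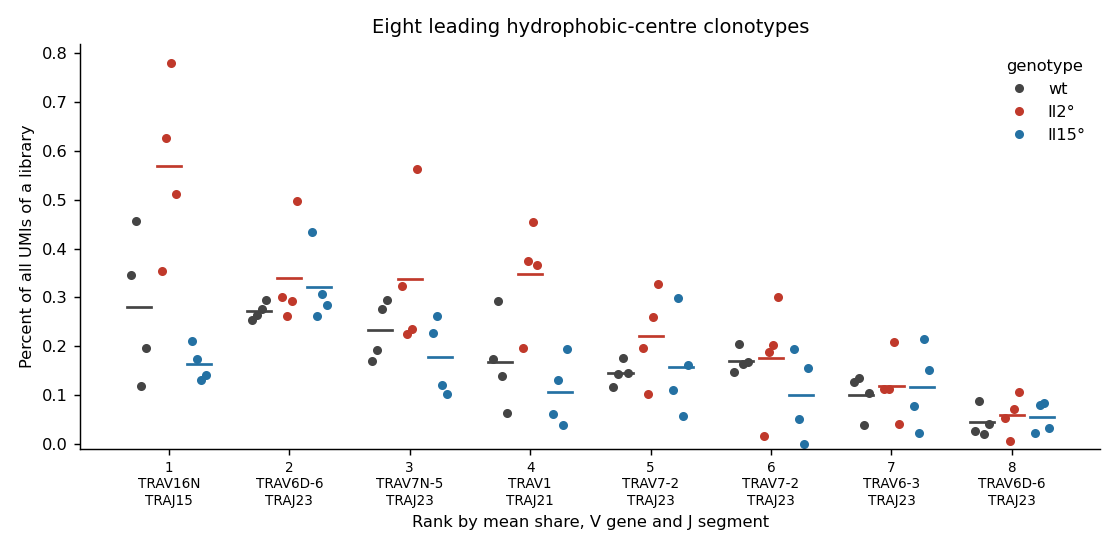
Share of all UMIs of the 8 leading members in each library, ordered by mean share (x axis: rank with V gene and J segment; points: mice, lines: means of 4). Clonotypes 1 (TRAV16N) and 4 (TRAV1) were higher in every Il2° than in every Il15° mouse, and the other 6 overlapped between genotypes.

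For single clonotypes edgeR's quasi-likelihood test was fitted over every clonotype that reached 5 UMIs in 4 or more of the 8 libraries of a pair of genotypes. Only 11 to 14 of the 903 members had the UMIs to be tested. Between Il15° and Il2° mice 1 of 11 members passed an adjusted p of 0.05, as did 0.276% of the 362 clonotypes tested. It was clonotype 1, TRAV16N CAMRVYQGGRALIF TRAJ15, at a log2 difference of -1.92 ± 0.39 (SE; edgeR, Benjamini-Hochberg adjusted p = 0.0445). This call was lost without TMM scaling, without the low-count filter, with the replicate block, after dropping the low copies in linked libraries and when any library but the first Il2° one was left out. Over all alternatives the log2 difference stayed between -2.07 and -1.45, with an adjusted p from 0.000295 to 0.302. Of these 11 members, 3 had an unadjusted p under 0.05, all lower in Il15° mice, against a background of 9.39% of tested clonotypes. The other 2 were clonotype 4, TRAV1 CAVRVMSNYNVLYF TRAJ21, with -1.84 ± 0.51 and an adjusted p of 0.242, and clonotype 3, TRAV7N-5 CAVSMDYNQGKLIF TRAJ23, with -1.04 ± 0.43 and an adjusted p of 0.489.

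Between Il2° and wt mice no member passed, as did 0% of 464 clonotypes tested. At an unadjusted p under 0.05, 2 of 13 members were higher in Il2° mice, against a background of 9.27%, and 0 of them without wt library 4 or Il2° library 2 or 3. Clonotype 1, TRAV16N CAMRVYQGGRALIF TRAJ15, had a log2 difference of 1.07 ± 0.42 (edgeR, adjusted p = 0.391) and clonotype 4, TRAV1 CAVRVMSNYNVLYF TRAJ21, one of 1.10 ± 0.46 (adjusted p = 0.391). The member with the next smallest p was TRAV7-2 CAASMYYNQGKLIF TRAJ23, hydrophobic at all 3 central positions, with 1.34 ± 0.75 (adjusted p = 0.617). It took 0.00836% to 0.0563% in wt and 0.0429% to 0.105% in Il2° mice and was not found in Il15° libraries 2 and 4. Between Il15° and wt mice no member passed either, with 0% of 478 clonotypes called, and 0 of 14 members had an unadjusted p under 0.05 against a background of 4.18%. The 3 smallest p belonged to clonotypes 1, 4 and 6, with log2 differences of -0.88 ± 0.48 for TRAV16N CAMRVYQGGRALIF TRAJ15, -0.75 ± 0.62 for TRAV1 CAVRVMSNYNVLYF TRAJ21 and -0.79 ± 0.72 for TRAV7-2 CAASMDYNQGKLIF TRAJ23 (edgeR, adjusted p = 0.982 each). The median log2 difference of the members tested was 0.57 for Il2° minus wt, -0.53 for Il15° minus wt and -0.87 for Il15° minus Il2°, beside 0.10, -0.17 and -0.12 for all clonotypes tested. These comparisons share mice, and the members tested were few and had passed a filter on abundance. DESeq2 called 2 clonotypes between Il2° and wt, 5 between Il15° and wt and 3 between Il15° and Il2° mice, of which 0, 0 and 1 were members.

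Members and other clonotypes were compared within each library for abundance, coding and junction. A member had 4.58 ± 0.668 UMIs in the library that held it, against 4.54 ± 0.968 for other clonotypes (SD, n = 12), and was higher in 6 of 12 libraries (exact sign-flip permutation p = 0.836). In the 4 Il2° libraries the difference was positive, with 0.656 ± 0.397 UMIs. In wt and Il15° mice it was -0.217 ± 0.495 and -0.332 ± 0.244, with 1 positive library each. Members themselves had the lowest mean in Il2° mice, with 4.243 UMIs against 4.725 in wt and 4.772 in Il15° mice. The other clonotypes had 3.588, 4.942 and 5.103, in the same order. When Y was left out of the rule, the 411 remaining members had fewer UMIs than the rest in the mean, by 1.12 (permutation p = 0.000977), and by 1.76 when positions 6 and 7 were both required (permutation p = 0.000488). By number of hydrophobic residues, clonotypes with 0, 1, 2 and 3 had 4.92, 3.80, 4.65 and 3.11 UMIs each in the mean of the libraries.

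Each member was encoded by 1.16 ± 0.0442 nucleotide sequences in a library, against 1.23 ± 0.0290 for others, and was lower in 12 of 12 libraries. The rule asks for certain residues, among them methionine with a single codon, at 2 or more of 3 positions. It therefore bears on the number of possible encodings, and this difference is a description. The deposited alignments left 2.92 ± 0.160 bases between V and J in members and 2.65 ± 0.124 in others, with members higher in 12 of 12 libraries (exact sign-flip permutation p = 0.000488, adjusted 0.000732). The difference of 0.270 bases was 0.141 when other clonotypes were weighted to the lengths of members and 0.551 when the J start was taken from the exact germline match, with members higher in both. It was 0.641 with Y left out of the rule and 0.765 with positions 6 and 7 both required. The rule reads residues at or next to this junction, so that the test was not independent of the rule and this difference too is a description. Among the leading members, clonotypes 3 and 6 were encoded by 2 nucleotide sequences, the main one with 95.2% and 94.4% of UMIs, whereas clonotype 7 was encoded by 8, clonotypes 1 and 4 by 7, and the main one held 47.8%, 71.9% and 63.3%.

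**Figure D4:**
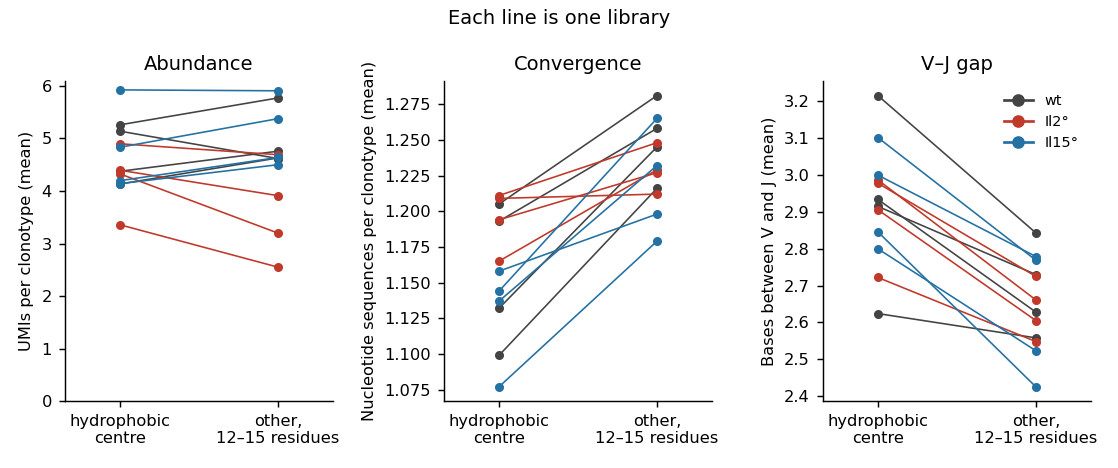
Mean UMIs, nucleotide sequences and bases between V and J per clonotype for hydrophobic-centre clonotypes and other in-frame clonotypes of 12 to 15 residues; each line is a library, coloured by genotype, and only the left axis starts at 0. In all 12 libraries members had fewer nucleotide sequences and more bases between V and J, whereas the lines for UMIs crossed.

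Most members were found in a single mouse. Of the 903 members, 505 (55.9%) occurred in 1 library, 254 in 2 and 76 in 3, and 7 in all 12. The 7 were clonotypes 1 to 5, 7 and 8. Among other clonotypes of 12 to 15 residues 51.7% occurred in 1 library. At the other end, 30 members (3.32%) occurred in 6 or more libraries, against 7.01% of the others. In a library, 18.4% ± 4.28 of its members and 33.3% ± 5.56 of its other clonotypes were also found in both other genotypes (SD, n = 12), with the members lower in 12 of 12. Libraries share these clonotypes, so that this was not tested. After dropping the low copies in linked libraries, 74.5% of members and 66.9% of others occurred in 1 library and 2.66% and 5.12% in 6 or more.

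**Figure D5:**
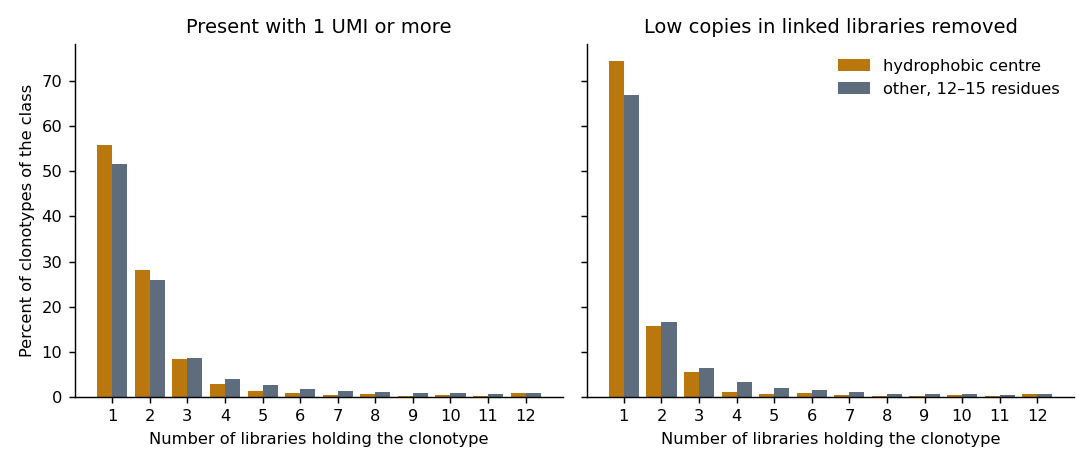
Percent of clonotypes by the number of libraries (of 12) that held them, for hydrophobic-centre clonotypes and other in-frame clonotypes of 12 to 15 residues, with presence from 1 UMI (left) and after dropping low copies in linked libraries (right). Single-library clonotypes rose from 55.9% to 74.5% of members and from 51.7% to 66.9% of the others.

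Across genotypes, 38 members were found in all 3, 102 in wt and Il2° mice alone, 26 in wt and Il15° mice alone and 26 in Il2° and Il15° mice alone. The 38 were 4.21% of members, against 9.84% of the other clonotypes, of which 1622 of 16483 were found in all 3 genotypes and 1968, 657 and 489 in the same pairs alone. The 102 fell to 56, and the 1968 of the others to 1193, after dropping the low copies in linked libraries. Of the linked pairs 3 joined wt and Il2° mice. Of the 903 members, 253, 232 and 226 were found in wt, Il2° and Il15° mice alone, respectively. Of the 16483 others, 4425, 4255 and 3067 were. The 7 members found everywhere held 31.3% to 41.5% of member UMIs in wt, 40.3% to 51.2% in Il2° and 26.6% to 37.6% in Il15° mice. The 505 members of a single library together held 4.46% to 34.1%.

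Public members, present in all 4 mice of a genotype, numbered 15 in wt, 15 in Il2° and 11 in Il15° mice (1.66%, 1.66% and 1.22% of members). Of the members 7 were public in all 3 genotypes. Among the other clonotypes of 12 to 15 residues 538, 354 and 351 were public (3.26%, 2.15% and 2.13%), and 150 were public in all 3. Of the 15 public in wt, 5 were not public in Il2° mice (33.3%, 95% Wilson bounds 15.2% and 58.3%) and 8 (53.3%, 30.1% to 75.2%) were not public in Il15° mice. For the other clonotypes of 12 to 15 residues the same shares were 55.9% (51.7% to 60.1%) and 60.6% (56.4% to 64.6%) of 538. After dropping the low copies in linked libraries, 10, 8 and 7 members were public in wt, Il2° and Il15° mice (1.11%, 0.886% and 0.775%). The others then numbered 366, 205 and 173 (2.22%, 1.24% and 1.05%). Of the 10 members, 4 were not public in Il2° mice (40.0%, 16.8% to 68.7%), against 64.8% (59.7% to 69.5%) of 366 other clonotypes. In Il15° mice 3 were not public (30.0%, 10.8% to 60.3%), against 65.8% (60.8% to 70.5%). These differences were not tested, since clonotypes of the same mice are not replicates. The Wilson bounds treat clonotypes as independent, so that they do not serve to compare members with others.

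Of the 903 members a few were public in only 1 genotype, with 5 in wt, 4 in Il2° and 3 in Il15° mice. Of the 16483 other clonotypes 239, 87 and 109 were. After dropping the low copies in linked libraries 2, 2 and 0 members were public in only 1 genotype, beside 196, 67 and 39 others. TRAV7-2 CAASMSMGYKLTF TRAJ9 had 9, 6, 7 and 2 UMIs in the wt libraries, none in the 4 Il2° libraries and 2 in a single Il15° library. TRAV6D-6 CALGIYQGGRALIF TRAJ15 had 2, 8, 5 and 3 UMIs in wt, none in Il2° and 0, 0, 1 and 5 in Il15° libraries. TRAV14-3 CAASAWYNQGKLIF TRAJ23 was public in wt mice alone, yet was missing from only 1 library each of Il2° and Il15° mice. Thus "public in 1 genotype" covered clonotypes with and without UMIs elsewhere.

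In Il2° mice the 3 most abundant such members were TRAV6-5 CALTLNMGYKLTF TRAJ9, TRAV7-2 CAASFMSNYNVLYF TRAJ21 and TRAV7D-6 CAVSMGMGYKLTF TRAJ9. The second of these had 9, 4, 4 and 1 UMIs in Il2°, 6, 3, 0 and 0 in wt and none in Il15° libraries, and the others were present in 3 wt libraries each. In Il15° mice TRAV6N-6 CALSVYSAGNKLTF TRAJ17 had 1, 6, 6 and 4 UMIs and none in the other 8 libraries. TRAV13N-2 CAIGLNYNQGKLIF TRAJ23 had 1, 6, 5 and 1 UMIs, with 5 in a single Il2° and none in wt libraries. TRAV12N-3 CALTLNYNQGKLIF TRAJ23 had 2, 3, 1 and 6 UMIs and was present in 3 wt and 2 Il2° libraries. None of these 3 remained public in Il15° mice alone when presence required 2 UMIs or after the low copies were dropped. At these counts a missing clonotype was often not detectable at the depth reached.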

How the data were processed

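TCRα mRNA was sequenced from sorted thymic Treg of 12 mice. Per the study's methods, the authors filtered reads with pRESTO, built a consensus per UMI, assigned V, CDR3 and J with MiXCR and wrote tables with VDJtools (versions not given in the sources used here), and the submitters' processing notes name mm10. The deposited count is the number of UMIs per row, and the deposited fraction (freq) is that count over its library's total. The deposited V end and J start place the segments in the CDR3 and carry no unit. Counts were summed per clonotype here. V and J names were matched to GENCODE M21 (44 of 44 TRAJ and 102 of 105 TRAV names). Rows without first cysteine were left out (4 rows, 5 UMIs).

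Shares were compared by exact Mann-Whitney tests, members with other clonotypes by exact sign-flip permutation over 12 libraries, and clonotypes by edgeR 4.0.16 (TMM, library totals) in R 4.3.3, with DESeq2 1.42.0 as alternative. SEs are the log2 difference over the root of the F statistic. Alternatives are given below mainly where they changed a direction or a call, and not all of them are listed. Scripts were tested on simulated data. Replicates are separate mice. The 8 members with the highest mean share, the 3 with the smallest edgeR p per pair, the 3 most abundant members public in 1 genotype alone, and segments with at least 5% of member UMIs are named. Members and lists were chosen with earlier results of these data known, and TRAJ tests between genotypes and the handling of linked libraries were added after seeing values.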

Additional observations from a re-analysis of the deposited data

Results flagged for a closer look

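In 81 groups of 4 mice, 5 had a sample far from the other 3 (6.17%). The rule is set to flag about 5% by chance, but it always flags a clonotype found in 1 mouse of a group alone. The share flagged can therefore not be compared with 5%. In the second wt library members exceeded other clonotypes by 0.521 UMIs per clonotype, whereas the other 3 wt libraries lay between -0.511 and -0.382. TRAV6D-6 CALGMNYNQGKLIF TRAJ23 took 0.498% of UMIs in the fourth Il2° library, the shallowest of all, against 0.263% to 0.301% in the other 3. The remaining 3 were clonotypes found in 1 mouse of a group alone: TRAV7-2 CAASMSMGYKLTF TRAJ9 with 0.0108% in the fourth Il15° library, TRAV7D-6 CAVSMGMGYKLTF TRAJ9 with 0.0744% in the third Il15° library, and TRAV13N-2 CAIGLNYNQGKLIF TRAJ23 with 0.0268% in the second Il2° library.

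The difference between members and other clonotypes was itself compared between genotypes for 3 measures. For UMIs per clonotype the Il15° minus Il2° value was -0.987, from differences of -0.332 and 0.656. For nucleotide sequences per clonotype the Il2° minus wt value was 0.0585, from -0.0343 and -0.0927. In both the 4 mice of each genotype did not overlap (unadjusted exact Mann-Whitney p = 0.0286), and none of the 9 tests passed adjustment (adjusted p = 0.129). So few separated tests could not pass at this number of mice. Il2° libraries had the fewest UMIs on average, 13732.5 against 20800.5 in wt and 15279.0 in Il15° mice, and the part of depth in these differences was not tested.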

How the results depend on the processing

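For the share of UMIs, Il15° minus wt changed sign with tyrosine left out (-0.268 points), positions 6 and 7 required (-0.0224) and all 3 required (-0.0107), and ranged from -0.175 (without Il15° library 1) to 0.284 with single libraries left out. It was also below 0 without Il15° library 4 or wt library 1. Without the most abundant member, Il2° minus wt was 0.604 points (exact Mann-Whitney p = 0.114). Il2° minus wt was 1.01 for 11 to 16 residues, and Il15° minus Il2° was -0.559 with tyrosine left out. In both the exact Mann-Whitney p of 0.0286 was not adjusted over the 3 pairs of genotypes, so neither counts as a call. For the share of clonotypes, Il2° minus wt changed sign when libraries were thinned (0.0135), for nucleotide clonotypes (0.103) and after dropping low copies in linked libraries (0.0224), and ranged from -0.153 to 0.0595 with single libraries left out, above 0 without Il2° library 3 or wt library 4. Leaving out libraries gave -0.0912 to 0.369 for Il15° minus wt and -0.0311 to 0.429 for Il15° minus Il2°, both below 0 without Il15° library 1. Members' UMIs per clonotype fell below those of others with tyrosine left out (-1.12) and positions 6 and 7 required (-1.76), and ranged from -0.0635 to 0.0883 with single libraries left out, below 0 without wt library 2 or Il2° library 2, 3 or 4.

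Public members in wt, Il2° and Il15° mice were 34, 31 and 30 when 3 of 4 libraries sufficed. These were 3.77%, 3.43% and 3.32% of members, beside 6.81%, 5.28% and 5.49% of other clonotypes. With presence from 2 UMIs Il15° had 7, and after dropping low copies Il2° had 8 and Il15° had 7. The 1 member called between Il15° and Il2° mice became 0 with library totals alone, without the low-count filter, after dropping low copies and with the replicate block, and 0 to 1 with single libraries left out. TRAV7-2 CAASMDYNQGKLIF TRAJ23 changed sign between Il15° and wt mice without the low-count filter (0.075 on the log2 scale). The cause of these changes was not tested.

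Replicate numbers only name mice: same-numbered libraries had deviations from their genotype means correlating at -0.195 to 0.140. With the replicate block (sign flips over equal numbers) Il2° minus wt for the share of UMIs had an exact permutation p of 0.125, the smallest that 4 pairs allow, and 0 members were called in each of the 3 comparisons. The counts of TRAV families ranged from 7 to 11 (10 as reported). Bases between V and J kept direction and call in all 18 alternatives (0.141 to 0.765), and nucleotide sequences per clonotype stayed lower in members in all 17.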
